A study of Mus musculus with 15 samples.

Results

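Macrophage genes were followed in RNA-sequenced mouse skin, with 9 genes that mark macrophages or are used to describe how they are polarized: Cd68, Lyz2, Adgre1, Csf1r, Mrc1, Cd163, Trem2, Gpnmb and Nos2. They were taken by their symbols from a table of 18929 genes, and all 9 were found. All 9 also passed the filter on low counts that left 15369 genes for testing.

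The 15 samples were skin of mice labelled WT, in 5 groups of 3. The 12 wound samples came from wounds on the back of male balb/c mice, made at an age of 4 to 6 weeks, and the age of the normal skin is not given in the sources used here. The 10 mm and 15 mm full-thickness wounds had been filled either with acellular Matrigel beads (acellular) or with Matrigel beads that carried human umbilical cord mesenchymal stem cells at high density, printed among acellular beads (HDB), and the fifth group was normal skin. All 12 wound samples, called healed skin here, therefore received Matrigel, so the wound and the gel cannot be told apart in a comparison with normal skin. The methods give both 4 weeks of implantation and day 21 as the end point of skin samples, and nothing says whether the 3 samples of a group came from separate animals, so p-values measure the spread between these samples, which may be technical.

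Skin macrophages are a mixture of long-lived resident cells, which sit along vessels and collagen and carry the scavenger receptors CD163 and MRC1 (CD206), and of cells that arise from blood monocytes and enter after injury. Both kinds depend on signals through CSF1R. After a wound, monocyte-derived cells first release inflammatory mediators and later clear debris and support repair, and a lipid-handling state marked by TREM2 and GPNMB is known from tissues in which macrophages take up much cell debris. NOS2 makes nitric oxide from arginine and has long served as a label of classical activation.

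Total estimated counts lay between 15840551 and 18404188 per sample. Levels are given as CPM (counts relative to library size, scaled by the trimmed mean of M-values, TMM), and as CPM per kilobase of merged exons where genes are compared with each other. Several wound samples stood apart. Acellular 15 mm sample 1 held 2385 CPM of the hair sheath keratin Krt25 and 556.7 CPM of the pigment cell gene Pmel, against at most 152 and 67.1 CPM in the other wound samples. HDB 10 mm sample 2 held 72.5 CPM of S100a8 and 123 CPM of S100a9, which neutrophils carry in large amounts, against at most 7.88 and 14.2 CPM in the others. The neutrophil surface gene Ly6g had 1 count in 1 sample and 0 in the other 14. Macrophage genes were present in every sample: the lowest Cd68 count was 120, and the general leukocyte gene Ptprc lay between 12.6 and 129 CPM. Since this is bulk tissue, fewer cells of a type and less RNA per cell cannot be told apart.

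**Figure D1:**
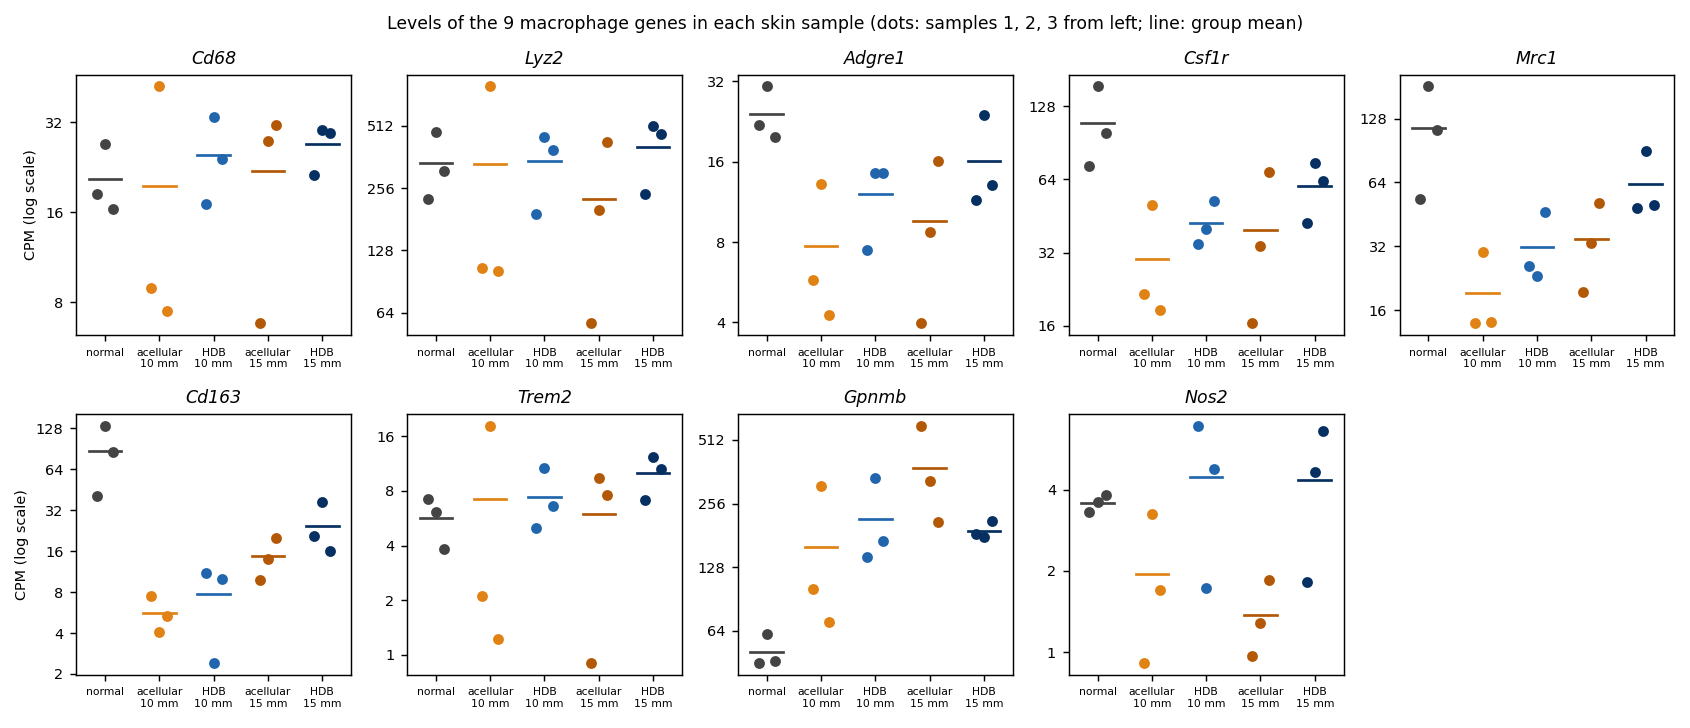
CPM of the 9 genes on log axes, 1 dot for each of the 3 samples of a group and a line at the group mean. Cd163 lies lower and Gpnmb higher in all 12 wound samples than in any normal sample, while Cd68, Lyz2 and Trem2 spread widely within the wound groups and overlap normal skin.

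In normal skin the lysozyme gene Lyz2 had the highest level per length (258 ± 97.7 CPM per kilobase, SD, n = 3). Csf1r (22.2 ± 8.53), Mrc1 (21.6 ± 11.9), Cd163 (19.3 ± 10.4) and Cd68 (16.4 ± 4.45) came next, and each overlapped its neighbour in this order. Gpnmb (11.3 ± 2.04) was followed by Adgre1 (7.47 ± 1.76) and Trem2 (4.98 ± 1.49), and Nos2 was lowest at 0.833 ± 0.0611 CPM per kilobase. Across the 12 wound samples the order was different. Lyz2 was again first (249 ± 165), but Gpnmb (52.3 ± 31.4) and Cd68 (18.5 ± 8.97) came directly after it, while Cd163 was down to 2.92 ± 2.10 CPM per kilobase. By group means Cd163 lay above Nos2 alone in both 10 mm groups and above Adgre1 as well in both 15 mm groups. Every neighbouring pair in this order overlapped.

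Promoters are shown for members whose levels are compared below, a member that was lower and one that was higher in healed skin (Mrc1 and Gpnmb) and a pair that was neither (Lyz2 and Cd68). RefSeq (GRCm38.p6) windows were found for 6 of the 9 genes, and each sequence holds the 250 bases before the transcription start, 5′ to 3′ on the gene's strand. Capitals mark AGGAAGT, the core bound by the myeloid factor PU.1 (ACTTCCT when it lies on the opposite strand), and CATGTG, a box bound by MITF and TFE factors (CACATG on the opposite strand).
Mrc1: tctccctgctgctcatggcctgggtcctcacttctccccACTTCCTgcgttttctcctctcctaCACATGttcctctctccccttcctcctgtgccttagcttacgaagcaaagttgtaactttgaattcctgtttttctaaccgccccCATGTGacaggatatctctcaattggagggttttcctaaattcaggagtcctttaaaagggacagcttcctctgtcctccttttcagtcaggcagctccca
Gpnmb: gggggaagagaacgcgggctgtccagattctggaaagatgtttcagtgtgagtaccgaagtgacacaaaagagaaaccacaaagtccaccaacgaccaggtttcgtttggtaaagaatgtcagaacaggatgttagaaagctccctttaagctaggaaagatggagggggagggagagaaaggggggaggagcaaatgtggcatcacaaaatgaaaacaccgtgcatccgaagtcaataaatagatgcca
Lyz2: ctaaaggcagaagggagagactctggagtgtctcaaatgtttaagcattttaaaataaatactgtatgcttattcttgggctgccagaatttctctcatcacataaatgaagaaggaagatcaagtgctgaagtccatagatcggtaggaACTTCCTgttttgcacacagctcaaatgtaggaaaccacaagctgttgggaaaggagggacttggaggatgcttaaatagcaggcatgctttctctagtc
Cd68: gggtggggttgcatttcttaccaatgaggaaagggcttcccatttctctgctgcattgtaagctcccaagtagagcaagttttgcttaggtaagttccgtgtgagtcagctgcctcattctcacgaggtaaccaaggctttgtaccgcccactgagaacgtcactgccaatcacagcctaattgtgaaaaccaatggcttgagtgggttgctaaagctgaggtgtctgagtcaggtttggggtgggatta
The windows lie at chr2:14229164-14229413 (plus strand) for Mrc1, chr6:49036268-49036517 (plus strand) for Gpnmb, chr10:117282273-117282522 (minus strand) for Lyz2 and chr11:69666171-69666420 (minus strand) for Cd68. Searched on both strands, the Lyz2 window held AGGAAGT once, 100 bases before the start. The Mrc1 window held it once, 211 bases before the start, together with CATGTG at 101 and 186 bases. The windows of Gpnmb, Cd68, Cd163 and Trem2 held neither, nor CACGTG, TTCNNNNGAA (the spacing bound by STAT6) or TGCTGAC (a core bound by MAF factors). Of all 32851 windows of this length, 7.69% held AGGAAGT, 12.3% CATGTG, 6.02% CACGTG, 5.85% TTCNNNNGAA and 3.81% TGCTGAC. These matches describe the letters only.

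Next, the 12 healed samples were compared with the 3 normal samples, which asks whether macrophage genes had returned to the level of unwounded skin. Cd163, Mrc1, Csf1r and Adgre1 fell and Gpnmb rose, while Cd68, Lyz2, Trem2 and Nos2 did not pass the test. That is 5 of 9 members, where 30.9% of all genes tested were called (14.2% higher and 16.7% lower). The median log2 fold change of the 9 members was -0.41, against 0.045 over all genes.

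The broad macrophage markers did not pass the test, and their intervals are wide. Cd68, a lysosomal glycoprotein of phagocytes that the study also stained in skin, had 18.5, 26.98 and 16.4 CPM in the normal samples. Values in acellular skin were 8.9, 42.2 and 7.48 CPM at 10 mm and 6.8, 27.6 and 31.4 CPM at 15 mm. Values in HDB skin were 17.1, 33.4 and 24.1 CPM at 10 mm and 21.3, 30.2 and 29.4 CPM at 15 mm. The wound samples lay on both sides of normal skin, with 3 below its lowest and 6 above its highest value, and the log2 fold change was 0.17 (SE 0.505, 95% interval -0.82 to 1.15, adjusted p = 0.820). Lyz2, which encodes a bactericidal lysozyme of macrophages and neutrophils, reached 795 CPM in acellular 10 mm sample 2 and 56.9 CPM in acellular 15 mm sample 1, the highest and lowest values of the series. Its normal values of 228, 480.0 and 311 CPM lay inside that range (log2 fold change -0.08, SE 0.629, 95% interval -1.31 to 1.15, adjusted p = 0.934). The neighbouring gene Lyz1, at 10:117287795-117292868 beside Lyz2 at 10:117277541-117282272 (GRCm38.p6), has a transcript that is 95.8% identical to that of Lyz2 over 1264 aligned bases, so reads could be split between them. Of the 1267 windows of 50 bases in the Lyz2 transcript, 195 (15.4%) also occur in that of Lyz1. The ratio of Lyz2 to Lyz1 was alike in healed (median 5.75, range 4.23 to 8.60) and normal skin (median 5.64, range 4.91 to 7.91).

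The receptors that define tissue macrophages were lower. For Csf1r, the receptor of CSF1 and IL-34, normal skin had 72.6, 154 and 98.9 CPM. The acellular samples had 21.6, 49.98 and 18.6 CPM at 10 mm and 16.4, 33.96 and 68.8 CPM at 15 mm. The HDB samples had 34.6, 40.03 and 52.1 CPM at 10 mm and 42.3, 75.05 and 62.9 CPM at 15 mm. Of the 12 wound samples, 11 lay below the lowest normal sample and HDB 15 mm sample 2 lay just above it. Csf1r fell 2.60-fold (log2 fold change -1.38, SE 0.355, adjusted p = 0.0139, exact two-sided permutation p = 0.00659 over 455 arrangements). Without normal sample 2 the adjusted p was 0.110, and without normal sample 3 it was 0.0519. Adgre1, which encodes the F4/80 antigen, ranged from 19.9 to 30.7 CPM in normal skin and from 3.97 to 23.9 CPM in healed skin, again with 11 of 12 samples below the lowest normal one. Adgre1 fell 2.20-fold (log2 fold change -1.14, SE 0.378, adjusted p = 0.0386), a call that was lost in 8 of the 15 fits that left out 1 sample (named with the limits), where its log2 fold change ranged from -1.29 to -0.93.

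The scavenger receptors showed the largest decreases of the 9 genes. Cd163, which takes up haemoglobin bound to haptoglobin, had 40.8, 134 and 84.98 CPM in normal skin. Values in acellular skin were 7.48, 4.04 and 5.38 CPM at 10 mm and 9.86, 14.1 and 19.96 CPM at 15 mm. Values in HDB skin were 11.01, 2.42 and 9.94 CPM at 10 mm and 20.7, 36.6 and 15.9 CPM at 15 mm. No wound sample reached the lowest normal value, and the highest of them was 36.6 CPM. Cd163 fell 7.73-fold (log2 fold change -2.95, SE 0.368, adjusted p = 0.000933), and the exact permutation p of 0.0022 was the smallest that 455 arrangements allow. Mrc1, the mannose receptor that clears glycoproteins and collagen fragments, had 53.2, 182 and 113 CPM in normal skin. The acellular samples had 13.9, 30.2 and 14.03 CPM at 10 mm and 19.5, 33.1 and 51.1 CPM at 15 mm. The HDB samples had 25.98, 23.1 and 46.4 CPM at 10 mm and 48.5, 90.3 and 50.4 CPM at 15 mm. Apart from HDB 15 mm sample 2, all wound samples lay below normal skin. Mrc1 fell 3.41-fold (log2 fold change -1.77, SE 0.349, adjusted p = 0.00474, exact permutation p = 0.00659). Both calls held in all 22 alternative fits.

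Of the lipid-handling pair, Gpnmb passed the test and Trem2 did not. Gpnmb, a transmembrane glycoprotein of lysosome-rich macrophages that pigment cells and osteoclasts also make, had 45.2, 61.5 and 45.95 CPM in normal skin. Values in acellular skin were 101, 309 and 70.7 CPM at 10 mm and 598, 326 and 209 CPM at 15 mm. Values in HDB skin were 143, 336 and 169.8 CPM at 10 mm and 183, 177 and 211 CPM at 15 mm. Every wound sample exceeded the highest normal sample. Gpnmb rose 4.39-fold (log2 fold change 2.13, SE 0.475, adjusted p = 0.00755, exact permutation p = 0.0022, the smallest possible), and this call also held in all 22 alternative fits. Trem2, a lipid-sensing receptor of phagocytes, ranged from 3.82 to 7.17 CPM in normal skin and from 0.907 CPM (acellular 15 mm sample 1) to 18.3 CPM (acellular 10 mm sample 2) in healed skin. With 3 wound samples below and 6 above normal skin, its log2 fold change was 0.40 (SE 0.723, 95% interval -1.02 to 1.82, adjusted p = 0.697). The ratio of Gpnmb to Trem2, given as a description, was 6.31 to 12.02 in normal and 14.5 to 659 in healed skin.

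Pigment cell genes were also higher in healed skin, and their part in the Gpnmb values was not tested. The summed level of the 10 melanocyte genes lay above the highest normal sample in 11 of 12 wound samples. Acellular 15 mm sample 1 had both the highest Gpnmb (598 CPM) and the highest summed level of these genes (2885 CPM, against 124 to 376 CPM in the other wound samples and 92.2 to 147 CPM in normal skin). Of these 10 genes, 9 were higher in healed skin (median log2 fold change 2.19) and 1 passed the test, Mitf (log2 fold change 0.48, adjusted p = 0.0237), with 6 at an unadjusted p under 0.05 (43.7% of all genes) and 6 called by DESeq2 (35.1% of all genes). Without any 1 of the acellular 15 mm samples 6 were called, and without any 1 normal sample 0. The median r of Gpnmb with these genes over the 15 samples was 0.527, as a description. Without acellular 15 mm sample 1 the log2 fold change of Gpnmb was 2.01 (adjusted p = 0.00555). Acellular 15 mm sample 2, the wound sample with the lowest melanocyte sum, had 9.92 CPM of Pmel (4.29 to 16.7 CPM in normal skin) and 326 CPM of Gpnmb. These samples were picked after their values were seen, and which cells the Gpnmb RNA came from was not tested.

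Nos2, the inducible nitric oxide synthase, did not pass the test in either direction. It was the lowest member, with 3.30 to 3.82 CPM in normal skin. All 12 wound samples lay outside that narrow range, 8 below and 4 above it, and the log2 fold change was -0.41 (SE 0.440, adjusted p = 0.495).

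**Figure D2:**
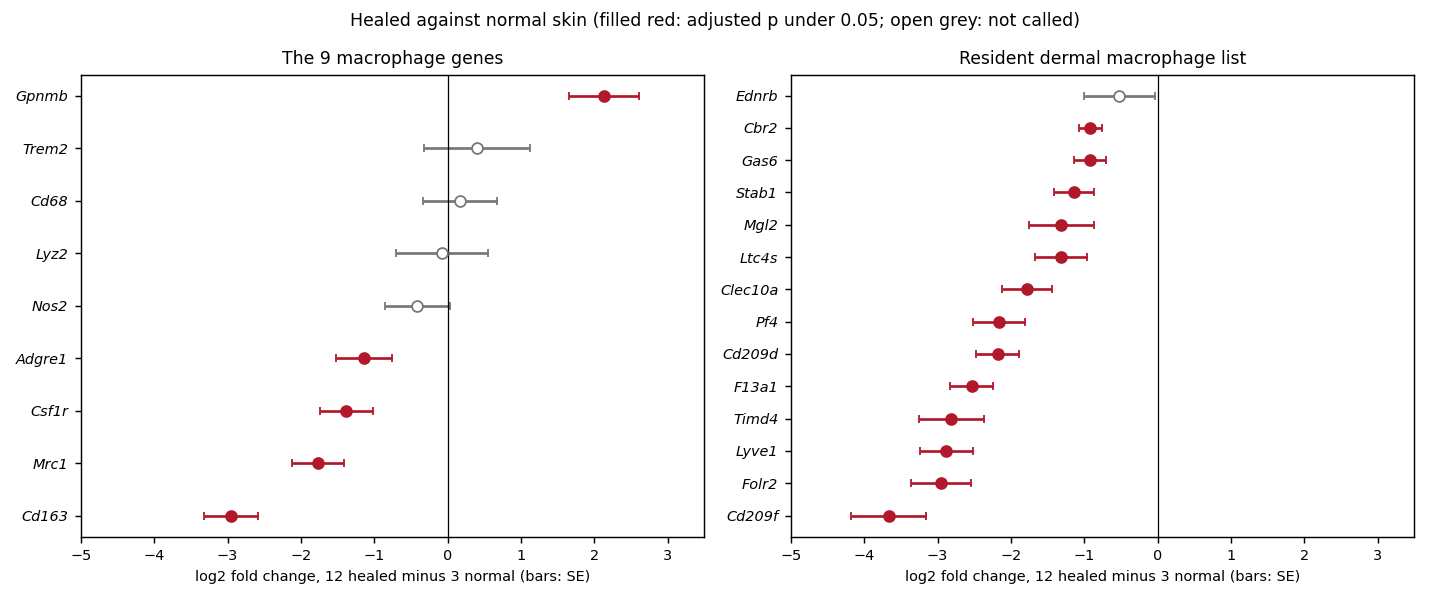
Log2 fold change of 12 healed against 3 normal samples with its standard error, for the 9 members and for 14 genes of resident dermal macrophages. Filled red points passed the test. Among the members 4 lie below and 1 above zero with a call, and 13 of the 14 resident genes lie below zero with a call.

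Each wound group was also set against the same 3 normal samples, so these comparisons are not independent of each other. In acellular 10 mm skin, 1 member rose and 4 fell (20.3% of all genes called, 9.77% higher and 10.6% lower). In acellular 15 mm skin, 1 rose and 3 fell (30.2% of all genes, 17.6% higher and 12.6% lower), and in HDB 10 mm skin 1 rose and 2 fell (12.3% of all genes, 6.1% higher and 6.23% lower). In HDB 15 mm skin 0 of 9 passed edgeR's test (5.18% of all genes), with 2 at an unadjusted p under 0.05 (26.9% of all genes) and 2 called by DESeq2 (14.5% of all genes). The shares of all genes moved widely when 1 sample was left out. They ranged from 5.14% to 11.9% in acellular 10 mm, from 14.8% to 37.3% in acellular 15 mm, from 0.501% to 17.5% in HDB 10 mm and from 0.218% to 8.61% in HDB 15 mm skin, and from 11.9% to 40.1% in all healed skin. The lowest came without normal sample 3, except without acellular sample 1 at 10 mm. The highest came without acellular 10 mm sample 2, acellular 15 mm sample 3, HDB 10 mm sample 1, HDB 15 mm sample 2 and, for healed skin, acellular 15 mm sample 1.

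Cd163 was the member farthest from normal skin in both 10 mm groups, while at 15 mm the values of Gpnmb and Cd163 were close in size (2.89 and -2.56 in acellular skin, 1.90 and -1.83 in HDB skin), with ranges over the alternatives that overlap in size. Cd163 fell 15.3-fold in acellular 10 mm (adjusted p = 0.00498), 5.91-fold in acellular 15 mm (adjusted p = 0.00846) and 11.1-fold in HDB 10 mm skin (adjusted p = 0.00957), and its log2 fold change in HDB 15 mm skin was -1.83 (SE 0.548, adjusted p = 0.0675). Mrc1 fell 5.99-fold, 3.35-fold and 3.64-fold in the same 3 groups, with adjusted p of 0.00960, 0.0232 and 0.0354. Csf1r fell in both acellular groups, 3.61-fold at 10 mm and 2.73-fold at 15 mm (adjusted p = 0.0259 and 0.0448), and Adgre1 fell in acellular 10 mm skin (3.12-fold, adjusted p = 0.0452). At 15 mm the log2 fold change of Adgre1 in acellular skin was -1.33 (adjusted p = 0.0688). The 10 mm call was lost in 6 of 14 alternatives (without acellular 10 mm sample 1 or 3 or any 1 normal sample, and with no filter), and the 15 mm value was called in 4 of 14 (DESeq2, the block with and without the length trend, and without acellular 15 mm sample 3). The Csf1r calls were lost without acellular 10 mm sample 1 or 3 or normal sample 2 or 3 at 10 mm, and at 15 mm without acellular 15 mm sample 1 or 2 or any 1 normal sample, or with only the groups compared. The Mrc1 call was lost in acellular 15 mm skin without acellular sample 1 or 2 and with only the groups compared, and in HDB 10 mm skin without any 1 HDB sample, and in both without normal sample 2 or 3. Whether these effects differ between the wound groups is a question for the direct comparisons further on, not for these counts. Those comparisons have wide intervals and can leave it undecided.

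Gpnmb rose in 3 of the 4 groups. The increase was 7.42-fold in acellular 15 mm (adjusted p = 0.00534), 3.15-fold in acellular 10 mm (adjusted p = 0.0446) and 4.25-fold in HDB 10 mm skin (adjusted p = 0.0306). Its log2 fold change in HDB 15 mm skin was 1.90 (SE 0.532, adjusted p = 0.0553), with all 3 samples above normal skin. In acellular 10 mm skin the value rested on sample 2, without which it was 0.75 (adjusted p = 0.225), and the call also ended without acellular sample 1, without any 1 normal sample and with the block, alone or with the length trend removed (adjusted p = 0.0567 and 0.0545). That in HDB 10 mm skin ended without HDB sample 2 or 3 or any 1 normal sample, with values of 1.63 to 2.25.

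The other genes of the macrophage network were described from lists, each by its calls beside the 30.9% of all genes called (43.7% at an unadjusted p under 0.05 and 35.1% by DESeq2). Genes of resident dermal macrophages were nearly all lower: 13 of 14 fell and 0 rose, with a median log2 fold change of -1.97. The largest decreases were in Cd209f, a C-type lectin (-3.67), Folr2, a folate receptor (-2.96), and Lyve1, a hyaluronan receptor (-2.88). Gas6, the ligand of MERTK and the highest of the list, fell by 0.92 on the log2 scale. Without normal sample 2, 9 of the 14 were called, which was the lowest count over the 22 alternatives. Within groups, 12 fell in each acellular group. With HDB 11 fell at 10 mm, and 1 without normal sample 3, 3 and 4 without HDB sample 2 or 3 and 6 without normal sample 2. In HDB 15 mm skin, where 5.18% of all genes were called, all 14 were lower (median -0.997). There 1 was called (Cbr2, a carbonyl reductase), with 8 at an unadjusted p under 0.05 and 6 by DESeq2, against the 26.9% and 14.5% of all genes given above. That count was 2 without HDB 15 mm sample 2 and 0 without either other HDB sample or any 1 normal sample.

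Genes shared by most macrophages were mostly not called. Of 24 tested, 5 fell and 0 rose (9 at an unadjusted p under 0.05, and 6 lower and 2 higher by DESeq2, against 43.7% and 35.1% of all genes), and the median was -0.15. Without normal sample 2, 1 fell and the median was 0.048. Without normal sample 3, 3 fell, and without acellular 15 mm sample 1, 6 fell and 3 rose. Siglec1, the sialic acid receptor of resident macrophages, fell by 2.81, and the complement genes C1qb, C1qa and C1qc fell by 1.75, 1.66 and 1.47. The transcription factor gene Maf fell by 0.44 on the log2 scale. The other 19 did not pass, among them Mpeg1, the highest of the list (1.35, adjusted p = 0.113).

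Genes linked to alternative activation were not of 1 direction either, with 5 of 15 fallen and 1 risen. Without acellular 15 mm sample 1 the number risen was 4, and it was 0 without acellular 10 mm sample 2, HDB sample 2 or 3 at either size, or any 1 normal sample. Retnla, a secreted product of interleukin-4-stimulated macrophages, fell by 3.37 (64.0 to 301 CPM in normal and 3.07 to 105 CPM in healed skin). The eosinophil attractant Ccl24 fell by 2.21 and the transcription factor Irf4 by 1.85, whereas the chemokine Ccl22 rose by 1.85. Klf4, the highest of the list and abundant in epidermis, fell by 0.33. Chil3, another gene of this programme, was at most 0.485 CPM in every sample.

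Among classical activation genes 5 of 20 rose and 2 fell, with a median of 0.92. The number risen was 8 with DESeq2 and 3 without normal sample 1 or 2, and 1 fell without normal sample 1 or 3. The interferon-gamma-induced chemokines Cxcl10 and Cxcl9 rose by 3.28 and 3.09, and the cytokine subunit gene Il12b by 3.13. Cxcl9 ranged from 4.15 to 6.09 CPM in normal and from 7.48 to 110 CPM in healed skin, with no overlap. The other subunit gene of interleukin-12, Il12a, fell by 1.88 from low levels, and the arginine transporter Slc7a2 fell by 1.5. Marcks, a membrane substrate of protein kinase C, was the highest of the list and rose by 0.70. Cells other than macrophages also make several of these products, so the list describes tissue levels.

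In the lipid-associated programme around Trem2, 6 of 25 rose and 3 fell. Single samples decided much of this count, with 3 risen and 2 fallen without normal sample 1, 2 and 1 without normal sample 2, 1 and 2 without normal sample 3, and 5 and 5 without acellular 15 mm sample 3. The lysosomal proton pump subunit gene Atp6v0d2 rose by 3.30 (0.537 to 3.37 CPM in normal and 3.22 to 33.1 CPM in healed skin), and the apolipoprotein genes Apoe and Apoc1 by 1.23 and 1.05. Lpl, the lipoprotein lipase gene, fell by 1.33, the fatty acid transporter Cd36 by 0.88 and the lysosomal membrane gene Lamp1 by 0.47. Apoe was the highest of the list, between 1967 and 2387 CPM in normal and between 2733 and 7886 CPM in healed skin.

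Monocyte recruitment genes rose for 2 and fell for 2 of 12, 4 and 2 with DESeq2, and for 1 each without any 1 normal sample. The monocyte attractants Ccl2 and Ccl7 rose by 2.83 and 1.55, and Ccl2 lay between 4.19 and 42.5 CPM in healed skin, above all normal samples (2.48 to 3.55 CPM). Plac8 and Ly6c2, which circulating monocytes carry, fell by 2.32 and 1.32. The receptor gene Ccr2 was the highest of the list (0.65, adjusted p = 0.320). Of 10 CSF1 receptor ligands and related cytokine genes 1 fell, Ifngr2 (0.55), and neither Csf1 nor Il34 passed, nor did the highest of them, Ifngr1 (-0.33, adjusted p = 0.130). In arginine and nitric oxide metabolism 4 of 12 fell and 0 rose, led by the neuronal synthase Nos1 (3.67), Slc7a2 (1.5) and the endothelial synthase Nos3 (1.14). Oat, an ornithine aminotransferase, was the highest of these (-0.29, adjusted p = 0.110). Over the alternatives 0 to 3 rose and 0 to 3 fell in the CSF1 receptor ligand list, and 0 to 2 rose and 2 to 4 fell in the arginine list. The ends were reached with single samples left out (normal sample 1 for the fewest, acellular 15 mm sample 1 for the most).

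Other cell types moved in the same comparison, and their part in the results was not tested. All 9 endothelial genes fell (median log2 fold change -1.45, led by Vwf, Cdh5 and Kdr), with a summed level of 649 to 755 CPM in normal and 121 to 507 CPM in healed skin. Of 8 fibroblast genes 2 fell, Dcn by 1.39 and Dpt by 1.12, and of 8 mast cell genes 3 fell, Cpa3 by 2.00 and Tpsb2 by 1.42, with Mcpt4 between them. Of 12 epidermal genes 5 rose, led by the wound keratins Krt16 (4.87), Krt17 (1.78) and Krt6a (1.73), and Krt10 and Lor fell by 0.95 and 1.84. All 18 hair shaft genes were higher and 9 were called, led by Krt73, Krt25 and Krt83. The summed level of these 18 was 19.5 to 24.4 CPM in normal and 42.7 to 25863 CPM in healed skin. Skeletal muscle genes fell for 2 of 12 by edgeR (Myh1 and Des), with 9 at an unadjusted p under 0.05 and 7 called by DESeq2. Their summed level was 51766 to 64528 CPM in normal and 770 to 37920 CPM in healed skin, below normal in all 12 wound samples. Erythrocyte genes fell for 3 of 4 (Hba-a1, Hba-a2 and Alas2), and T cell genes rose for 1 of 9 (Lck, 0.88). Of 12 Langerhans and dendritic cell genes 2 rose, Epcam (1.32) and Fscn1 (0.67), and 0 of the 6 tested neutrophil genes passed edgeR's test, with 0 at an unadjusted p under 0.05 and 0 by DESeq2, against 43.7% and 35.1% of all genes. Apart from the endothelial genes (8 to 9 fallen) these counts were not firm. Over the alternatives the number fallen ranged from 0 to 3 for erythrocyte genes (0 with the replicate block and without HDB 10 mm sample 3, HDB 15 mm sample 1 or normal sample 2 or 3), from 1 to 6 for fibroblast genes (6 without acellular 15 mm sample 3), from 1 to 5 for mast cell genes (5 without that sample) and from 1 to 11 for muscle genes (11 without acellular 15 mm sample 2). The number risen ranged from 0 to 18 for hair shaft genes (0 or 1 without any 1 normal sample, 16 without acellular 15 mm sample 3, 18 with DESeq2), from 1 to 6 for epidermal genes (2 and 1 without normal sample 2 or 3, with 0 fallen), from 1 to 5 for Langerhans and dendritic cell genes (5 without acellular 15 mm sample 1) and from 0 to 2 for T cell genes (2 without that sample).

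The members were next set against Cd68 within each sample, which removes a shared rise or fall of all macrophage RNA as far as Cd68 tracks it. These ratios were chosen after the values had been seen and are given as a description, with no test. The ratio of Cd163 to Cd68 was between 2.21 and 5.17 in normal and between 0.0726 and 1.45 in healed skin, with no overlap. Those of Csf1r (3.93 to 6.02 against 1.19 to 2.49) and Adgre1 (1.14 to 1.21 against 0.313 to 0.790) were also apart, while that of Mrc1 overlapped (2.88 to 6.89 against 0.692 to 2.98). The ratio of Gpnmb to Cd68 was higher in every wound sample, 5.86 to 87.9 against 2.28 to 2.80 in normal skin. By contrast Trem2 and Lyz2 kept a like proportion to Cd68, with ranges of 0.133 to 0.433 and 7.27 to 18.9 in healed and of 0.226 to 0.388 and 12.3 to 18.9 in normal skin. Cd163 was also lower relative to the other scavenger receptor, with a ratio to Mrc1 of 0.737 to 0.765 in normal and 0.105 to 0.539 in healed skin.

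**Figure D3:**
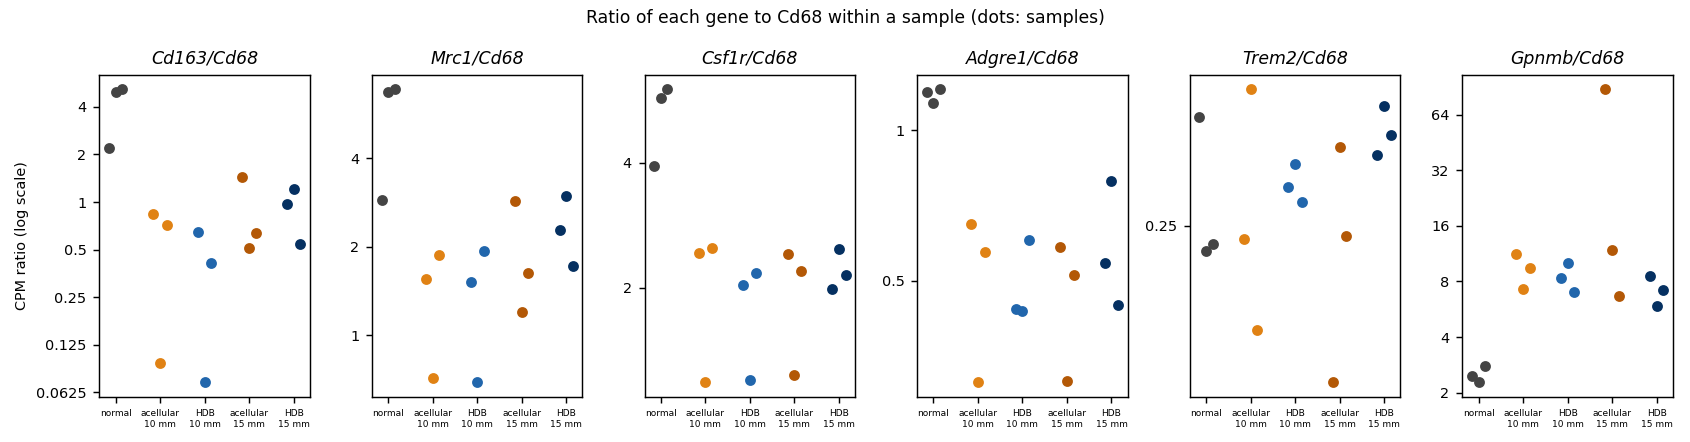
CPM of 6 members divided by CPM of Cd68 in the same sample, on log axes with 1 dot per sample. The 3 normal samples lie above all wound samples for Cd163, Csf1r and Adgre1 and below all of them for Gpnmb, while Trem2 overlaps.

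The main question of the design is whether the cells in the beads changed the healed skin. No member passed the test for HDB against acellular skin. At 10 mm 0 of 9 members were called by edgeR (0% of all genes), with 0 at an unadjusted p under 0.05 (3.53% of all genes) and 0 by DESeq2 (0.0991%). At 15 mm 0 of 9 were called (2.93% of all genes), with 1 at an unadjusted p under 0.05 (23.2% of all genes) and 1 by DESeq2 (12%). That share of all genes was 0% without any 1 HDB 15 mm sample, with the groups compared alone or with the length trend removed, 0.979% without acellular 15 mm sample 1 and 14.9% without acellular 15 mm sample 3. Over both sizes 0 were called (0% of all genes), with 2 at an unadjusted p under 0.05 (2428 of all 15369 genes) and 1 by DESeq2 (1.51%). The median log2 fold change of the members was 0.47 at 10 mm, 0.74 at 15 mm and 0.54 over both, against -0.0083, 0.0041 and -0.0081 over all genes.

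Nos2 had the largest difference between the treatments. Acellular samples held 0.913, 3.26 and 1.7 CPM at 10 mm and 0.964, 1.28 and 1.86 CPM at 15 mm. HDB samples held 6.92, 1.72 and 4.78 CPM at 10 mm and 1.83, 4.67 and 6.61 CPM at 15 mm. At each size 2 of 3 HDB samples exceeded all 6 acellular samples, and the third lay within the acellular range. Over both sizes HDB skin had 2.69 times the acellular level (log2 fold change 1.43, SE 0.412, 95% interval 0.62 to 2.23, adjusted p = 0.261), and the exact permutation p was 0.035 within sizes, where 0.005 is the smallest possible. That test did not use the replicate numbers. Between samples of the same number at 15 mm, HDB skin was higher in 3 of 3 pairs, as it was for Lyz2 and Trem2. This is given as a description, and of the other members Cd68, Adgre1, Csf1r, Mrc1 and Cd163 were higher in 2 of 3 pairs and Gpnmb in 1. With DESeq2 the adjusted p was 0.0465, and over the other alternatives it ranged from 0.0702 to 0.495. At 15 mm the log2 fold change was 1.67 (SE 0.588, adjusted p = 0.124, and 0.163 with the replicate block), and it did not differ detectably from that at 10 mm (difference 0.48, 95% interval -1.11 to 2.07).

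The receptors of tissue macrophages leaned the same way without passing. Over both sizes Mrc1 had a log2 fold change of 0.79 (SE 0.350, adjusted p = 0.302) and Adgre1 of 0.70 (SE 0.367, adjusted p = 0.356). Cd163 had 0.60 (SE 0.387, adjusted p = 0.438) and Csf1r 0.54 (SE 0.348, adjusted p = 0.435). Their exact permutation p was, in that order, 0.045, 0.075, 0.29 and 0.105, like that of Nos2 not adjusted for the 9 members. Their 95% intervals reached from -0.16 at the lowest to 1.48 at the highest, so their size is only loosely bounded by these 12 samples. Cd68, Lyz2 and Trem2 had values of 0.32, 0.44 and 0.39, with standard errors of 0.445, 0.567 and 0.625 and exact permutation p of 0.225, 0.165 and 0.185. For these 3 genes acellular 10 mm sample 2 mattered. Without it their values over both sizes were 0.95, 1.29 and 1.44 (adjusted p = 0.211, 0.209 and 0.204), and at 10 mm they went from 0.35, 0.050 and 0.046 to 1.60, 1.74 and 2.15 (adjusted p = 0.885 for each).

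Gpnmb was the member with the largest difference between wound sizes in its treatment effect. Its log2 fold change for HDB against acellular was 0.43 (SE 0.514) at 10 mm and -0.99 (SE 0.518) at 15 mm. Over both sizes it was -0.28 (SE 0.363, adjusted p = 0.716, exact permutation p = 0.825). The interaction was -1.42 (SE 0.729, 95% interval -2.85 to 0.01, adjusted p = 0.426), with 0 of 9 members called (0% of all genes) and 0 at an unadjusted p under 0.05 (13.4% of all genes), also 0 by DESeq2 (4.59%). The interaction was -0.92 without acellular 15 mm sample 1, the sample rich in pigment and hair genes, and -2.32 without acellular 10 mm sample 2, the ends of its range over the alternatives.

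**Figure D4:**
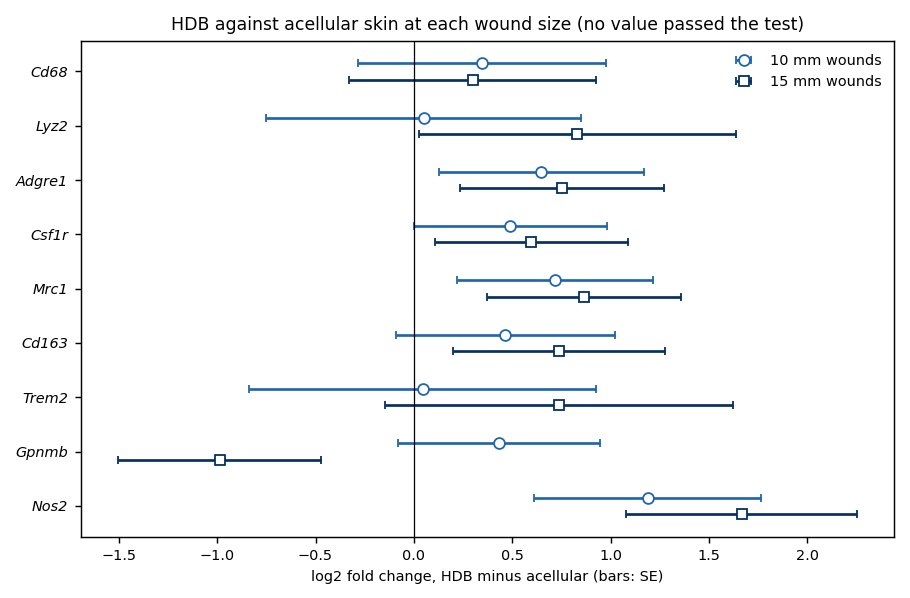
Log2 fold change of 3 HDB against 3 acellular samples at each wound size, with its standard error, for the 9 members. All values lie above zero except that of Gpnmb at 15 mm, and none passed the test.

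The lists gave no calls in this comparison either. Of the 236 other list genes tested, 0 were called by edgeR at either size or over both. In the smaller wounds 28 of them had an unadjusted p under 0.05 and DESeq2 called 1. In the larger wounds these counts were 46 and 19, and with the sizes pooled 60 and 16. Of all 15369 genes, 543, 3567 and 2428 were at an unadjusted p under 0.05 in the same 3 comparisons, and DESeq2 called 0.0991%, 12% and 1.51%. Of the 24 further macrophage identity genes, 24 had a positive HDB minus acellular value at 10 mm (median 0.47) and 20 at 15 mm (median 0.52), and of the 14 resident genes 10 and 13 were higher (medians 0.52 and 0.82). Genes of other cells leaned too. All 9 endothelial (median 0.58), all 8 fibroblast (1.00) and all 9 T cell genes (0.50) were higher in HDB skin over both sizes. So were all 12 skeletal muscle (0.53) and 7 of 8 mast cell genes (1.11). All 18 hair shaft and all 10 melanocyte genes were lower (medians -4.64 and -1.43). None of these genes was called by edgeR, whereas DESeq2 called 14 of the hair shaft genes and 1 of the fibroblast genes. At an unadjusted p under 0.05 were 18 hair shaft, 7 fibroblast, 5 endothelial, 5 mast cell and 5 melanocyte genes. For the T cell and skeletal muscle lists that count was 0, beside 2428 of all 15369 genes. Without acellular 15 mm sample 3, edgeR called 6 of the fibroblast, 4 of the mast cell and 8 of the hair shaft genes over both sizes (1.47% of all genes). At 15 mm (14.9% of all genes) it then called 7, 5 and 9 of them, 6 melanocyte genes and 1 gene each of the further macrophage, resident, endothelial and T cell lists, as well as 2 lipid-associated and 2 CSF1 receptor ligand genes, both higher, and 3 arginine and nitric oxide genes, all lower. Without acellular 15 mm sample 2 it called 5 melanocyte, 2 arginine and nitric oxide, 1 hair shaft and 1 epidermal gene at 15 mm (4.19% of all genes). Without acellular 15 mm sample 1 the melanocyte median at 15 mm turned from -2.77 to 0.22. Their part in the macrophage values was not tested.

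When both treatments were pooled by wound size, 0 of 9 members passed the test for a difference between 15 mm and 10 mm wounds by edgeR (0.397% of all genes), with 2 at an unadjusted p under 0.05 (15.1% of all genes) and 1 called by DESeq2 (5.14%). The edgeR share was 0% in 9 of the 12 fits that left out 1 wound sample, 0.604% without HDB 10 mm sample 1, 3.12% without acellular 15 mm sample 1 and 4.63% without acellular 15 mm sample 3. By the methods, 15 mm wounds with HDB received more cells and beads than 10 mm wounds. Wound size and dose therefore cannot be told apart, here or in the treatment by size interaction. The 6 Cd163 values of 10 mm wounds lay between 2.42 and 11.01 CPM and those of 15 mm wounds between 9.86 and 36.6 CPM, overlapping at the edge. The log2 fold change of Cd163 was 1.51 (SE 0.393, adjusted p = 0.0939, and 0.00521 with DESeq2), and that of Mrc1 was 0.91 (SE 0.351, adjusted p = 0.237). All 14 resident genes were higher at 15 mm (median 0.91) and 19 of 20 classical activation genes were lower (median -0.42), with 0 called in either list by edgeR. At an unadjusted p under 0.05 there were 9 resident and 4 classical genes, and DESeq2 called 5 and 1, beside the 15.1% and 5.14% of all genes. Genes of other cells leaned too, with 0 called by edgeR in each list, and their part was not tested. Higher at 15 mm were all 9 endothelial (median 0.46), all 8 fibroblast (0.61) and all 4 erythrocyte genes (1.62). So were 7 of 8 mast cell (0.89), all 10 melanocyte (0.80) and all 18 hair shaft genes (3.37). At an unadjusted p under 0.05 were 15 hair shaft, 4 erythrocyte, 4 mast cell, 2 fibroblast, 1 endothelial and 1 melanocyte gene. DESeq2 called 12, 0, 3, 1, 0 and 0 of these lists in that order. Lower were all 12 skeletal muscle genes (median -0.39) and all 6 neutrophil genes (median -0.95, with 3 at an unadjusted p under 0.05 and 1 by DESeq2).

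Finally, the pattern of each member over the 15 samples was compared with the tested genes, both the other members and, separately, genes outside the set. Correlations of log2 CPM are given as a description, since the points share the 5 groups and the tissue makeup of each sample. Over all 15 samples Cd68 ran with Trem2 (r = 0.97) and Lyz2 (0.94), and Csf1r with Adgre1 (0.96) and Mrc1 (0.94), which in turn ran with Cd163 (0.87). Within the 12 wound samples these sets were less separate. There Cd68 also ran with Adgre1 (0.895) and Csf1r (0.887), and Lyz2 with Adgre1 (0.916) and Csf1r (0.91), while Cd163 gave 0.727 with Mrc1 and 0.441 with Csf1r. Cd68 and Cd163, both used as macrophage markers, were nearly unrelated (r = 0.10, and 0.12 within the 12 wound samples). Gpnmb ran with none of the others, its r lying between -0.585 with Cd163 and 0.20 with Cd68.

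The genes most like each member, other members left out, were often macrophage genes. For Cd163 they were Folr2 (r = 0.984, and 0.963 within the wound samples), Cd209f (0.974) and Mturn (0.971), the first 2 of which are genes of the resident list. For Mrc1 they were C1qa (0.980), C1qb (0.977) and B3galnt1 (0.975), and for Csf1r they were Mgl2 (0.966), C1qb (0.963) and Hacd4 (0.962). Cd68 was most like Cyba (0.973), a subunit of the phagocyte oxidase, Pirb (0.965) and Ly9 (0.963), and Trem2 like Cd84 (0.955), Cd300a (0.954) and Cyba (0.948). For Lyz2 the nearest was Fcer1g (0.965), the common chain of Fc receptors, then Lilrb4a (0.961) and Cyba (0.961), and for Adgre1 the kinase gene Lyn (0.963), Lrrc25 (0.957) and Gm21188 (0.953). The nearest genes of Gpnmb were Galnt6 (0.912, and 0.814 within the wound samples), Creg2 (0.909) and Slc37a2 (0.908). Those of Nos2 were 4930503L19Rik (0.855), Magee1 (0.820) and Dpysl2 (0.816). Of the 9 members, Nos2 thus had the weakest match outside the set.

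**Figure D5:**
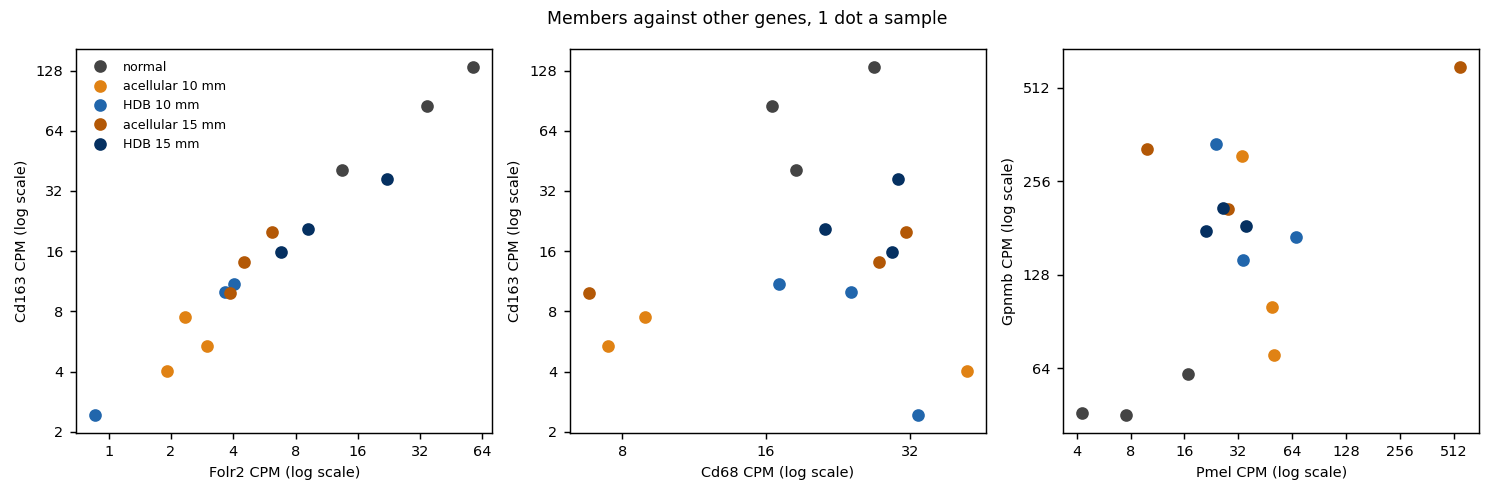
Pairs of genes in CPM on log axes, 1 dot per sample, coloured by group. Cd163 follows Folr2 across all 15 samples (left) but not Cd68 (middle), and the 1 sample with high Pmel also has the highest Gpnmb (right).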

How the data were processed

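Poly(A)-selected RNA of 15 skin samples (5 groups of 3) was sequenced. What the authors deposited is a table of RSEM-type estimated counts for 18929 genes, without normalization. The submitters' processing notes name HISAT2 2.0.4, Bowtie2 2.2.5, RSEM 1.2.12 and GRCm38.p6, with no role or order, and the methods name DESeq2 and FPKM. RSEM shares ambiguous reads between alike genes, which may bear on Lyz1 and Lyz2.

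Counts were rounded. In R 4.3.3, edgeR 4.0.16 was run with TMM, filterByExpr (15369 genes) and, for 1 model holding the means of the 5 groups, the quasi-likelihood test (Benjamini-Hochberg over all genes, threshold 0.05). The SE is the absolute log2 fold change over the square root of F, and 95% intervals are 1.96 SE either way. Such intervals are narrower than the quasi-likelihood test implies. For Nos2 in HDB against acellular 10 mm skin the interval was 0.059 to 2.32, with an unadjusted quasi-likelihood p of 0.0606. A prior count of 2 entered log2 CPM. Exact permutation tests were two-sided on log2 CPM, with 455 arrangements for healed skin, 20 within a size and 400 over both. The edgeR test of healed against normal skin was also run on simulated counts with known changes and a single spread for all genes. That setting is simpler than these data and did not cover the comparisons among wounds.

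Alternatives were DESeq2 1.42.0, RLE scaling, no filter, a mean of at least 50 counts, a fit of the compared groups alone, a block on replicate number, each sample left out and, added after the data were seen, removal of the trend with merged exon length (15085 genes with a length), alone and with the block. The lists were also recomputed under each alternative, added after the data were seen. In 15 mm wounds, deviations from the group means of acellular and HDB samples of 1 number had r = 0.397, 0.167 and 0.183. No other pair of groups had r over 0.1 for all 3 numbers, though HDB 15 mm and normal skin had 0.115, 0.136 and 0.0158. By this cutoff, applied to all pairs of groups, numbers are taken as possible pairs at 15 mm only. The labels do not say what a number marks. No 2 samples of a group agreed within counting noise.

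The 9 members and the 19 other lists were chosen with earlier results of these data known, and gene names follow 1 rule: all members, from each list up to 3 most risen and 3 most fallen called genes and the highest one, and for each member the 3 genes with the highest r, members left out. Other genes, such as those that mark samples standing apart, were chosen after their values were seen. A further gene of the set, some list genes and a gene with a like pattern are not reported here and entered no count of members or list genes. Positions and promoters are from RefSeq (GRCm38.p6) and transcripts from GENCODE M21.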

Additional observations from a re-analysis of the deposited data

How the results depend on the processing

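Over the alternatives that kept all samples, 573 of 598 log2 fold changes kept their direction and side of the threshold (interactions other than those of Gpnmb and Nos2, and size differences other than those of Cd163 and Mrc1, were not counted). The count of members called moved by over 1.5 times in 7 cases. In HDB 15 mm against normal skin it was 2 with DESeq2 (14.5% of all genes), 1 at a minimum of 50 counts (7.08%) and 2 with only the groups compared (22.9%). In acellular 15 mm against normal skin it was 2 with only the groups compared, where the share of all genes went from 30.2% to 6.57%. With DESeq2 it was 1 for HDB against acellular at 15 mm and over both sizes (Nos2, 12% and 1.51% of all genes) and 1 for 15 mm against 10 mm (Cd163, 5.14%). The cause was not tested. Signs turned in 7 small values, none of them called. With the replicate block these were Trem2 (-0.32) in acellular 10 mm skin, Cd68 (-0.043) and Trem2 (-0.28) in acellular 15 mm and Lyz2 (-0.023) in HDB 10 mm skin, all against normal skin. With the length trend removed the sign turned for Cd68 in HDB against acellular 15 mm skin (-0.040), and with that and the block for Trem2 (-0.32) in acellular 10 mm and Trem2 (-0.10) in acellular 15 mm skin.

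With the block the count was 5 for healed, 4 for acellular 10 mm and 5 for acellular 15 mm against normal skin (27.3%, 16% and 25.3% of all genes). It stayed 0 for HDB against acellular at 15 mm (1.16%). Leaving out 1 sample gave 3 to 5 called members in healed skin, lowest without normal sample 2 or 3, 2 to 4 in acellular 10 mm, 2 to 5 in acellular 15 mm, 1 to 2 with HDB at 10 mm and 0 at 15 mm, and 0 to 0 in every comparison among wounds. Adgre1 in healed skin was lost without acellular 10 mm sample 1 or 3, acellular 15 mm sample 2, HDB 15 mm sample 1 or 3, or any 1 normal sample. Among the interactions and size differences not counted above, signs turned in some alternatives for the interactions of Cd68, Adgre1, Csf1r, Mrc1, Lyz2, Cd163 and Trem2. They also turned for the size differences of Cd68, Lyz2, Nos2 and Trem2. Among the counted values, signs turned in those near zero when 1 sample was left out. In HDB vs acellular 15 mm the range was Cd68 -0.13 to 0.65. In acellular 10 mm vs normal the range was Cd68 -1.33 to 0.31, Lyz2 -1.71 to 0.41 and Trem2 -1.76 to 0.84. In HDB vs acellular 10 mm the range was Cd68 -0.042 to 1.60, Gpnmb -0.014 to 1.34, Lyz2 -0.38 to 1.74 and Trem2 -0.45 to 2.15. In acellular 15 mm vs normal the range was Cd68 -0.26 to 0.51 and Trem2 -0.43 to 0.58. In healed skin vs normal the range was Cd68 -0.15 to 0.41, Lyz2 -0.50 to 0.26 and Trem2 -0.13 to 0.60. In HDB vs acellular both sizes the range was Gpnmb -0.50 to 0.17. In HDB 10 mm vs normal the range was Lyz2 -0.21 to 0.36 and Nos2 -0.13 to 0.71. In HDB 15 mm vs normal the range was Nos2 -0.14 to 0.65. In the treatment by size interaction the range of Nos2 was -0.10 to 0.90. Nos2, with as few as 16 counts in a sample, and Trem2, with the same minimum, are the members that depth limits most.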
